A study of Homo sapiens with 6 samples.

Results

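The E2F and DP transcription factors were followed through RNA-seq of BxPC-3, a human pancreatic cancer cell line, as 10 genes chosen by symbol (E2F1 to E2F8, TFDP1 and TFDP2) among the 26255 genes with a value in each library. The study asked which genes change when cells receive miR-4711-5p, and it sequenced 6 libraries in 3 groups of 2. The parent group was untreated BxPC-3, the NC-1 group was BxPC-3 given a negative control duplex, and the miR-4711-5p group was BxPC-3 given that miRNA, with RNA compared 36 h after transfection. All 3 groups are the same single cell line in culture, and nothing says whether the 2 libraries of a group came from separate cultures, so p-values measure only the spread between these libraries, which may be technical. Levels are FPKM, fragments scaled to transcript length and library size, and can therefore be set side by side between genes.

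E2F proteins bind DNA in front of cell cycle genes and, except for the atypical members, do so as a pair with a DP protein (TFDP1 or TFDP2). E2F1, E2F2 and E2F3 act mainly as activators of genes for DNA synthesis once cyclin-dependent kinases release them from the retinoblastoma protein. E2F4 and E2F5 act mainly as repressors in quiescent cells together with the pocket proteins RBL1 and RBL2, E2F6 represses through Polycomb complexes without a pocket protein, and E2F7 and E2F8 repress late in the cycle without a DP partner. Pancreatic cancers commonly lose the kinase inhibitor encoded by CDKN2A, which acts upstream of this family, and CDKN2A was listed at 0 FPKM in all 6 libraries.

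The miRNA sequence is shown first because it is what the treated cells received. RefSeq gives one mature arm of this name with 23 bases, printed here with bases 2 to 8, the seed that pairs with target mRNAs, in capitals.
hsa-miR-4711-5p: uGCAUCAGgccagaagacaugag
A pairing site in a 3′ UTR was called a 7mer-m8 when it held CTGATGC, a 7mer-A1 when it held TGATGCA and an 8mer when it held CTGATGCA. Of the 10 genes, 2 held at least one such site in their longest annotated 3′ UTR, TFDP1 and TFDP2 (20.0%), against 1959 of the 10593 tested genes matched to the annotation (18.5%). No member had a site in its coding sequence.

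TFDP1 (chr13:114239036-114295788, plus strand, GRCh37) has a 3′ UTR of 1206 nt with 2 sites, an 8mer at chr13:114294787-114294794 starting 205 nt after the stop codon and a 7mer-m8 at chr13:114294959-114294965 starting at 377 nt. TFDP2 (chr3:141663270-141868386, minus strand) has a 3′ UTR of 8085 nt, in which a single 7mer-m8 lies at chr3:141665134-141665140, 6215 nt after the stop codon and in the 3′ UTR of 2 of its 9 coding transcripts. These windows are at most 30 bases of the GRCh37 genome read in the sense of the mRNA, and the capitals mark the site.
TFDP1 8mer: ataccagtgtgCTGATGCAgagcgtttatt
TFDP1 7mer-m8: atggtgagcccCTGATGCcgcttatttgc
TFDP2 7mer-m8: ggccaacgtagCTGATGCtcagggtcagg
The sites of TFDP1 lie near the stop codon of its only coding transcript, whereas that of TFDP2 lies far along a long 3′ UTR that most of its transcripts do not share. A sequence match is a description and does not show that the site was used.

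**Figure D1:**
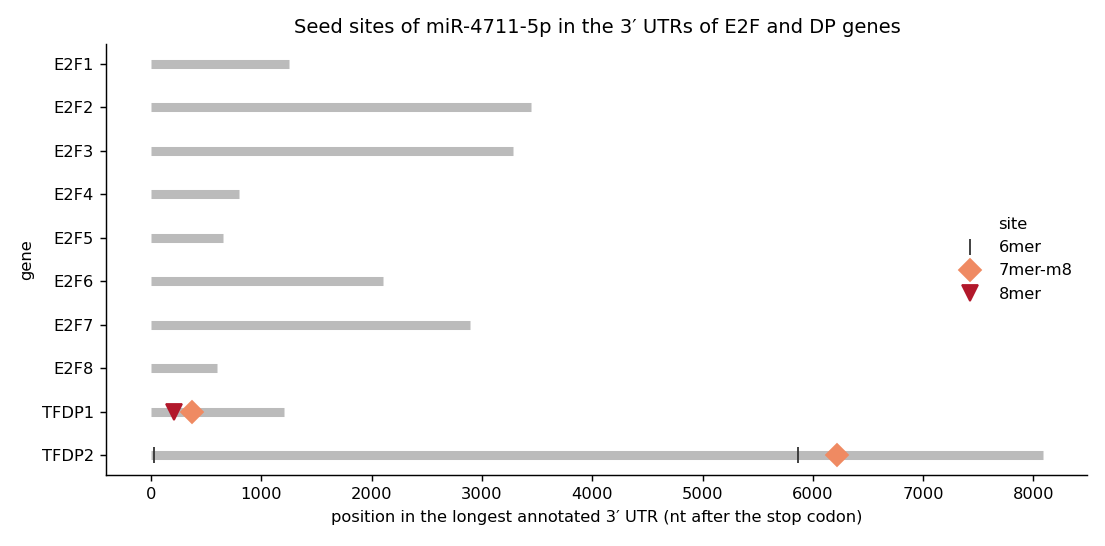
Longest annotated 3′ UTR of each of the 10 genes (grey bars, x axis in nt after the stop codon) with matches to the miR-4711-5p seed marked by type. TFDP1 carries an 8mer and a 7mer-m8 within its first 377 nt, TFDP2 carries a 7mer-m8 at 6215 nt and 2 weaker 6-base matches, and the other genes carry none.

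Promoters were also read, since E2F genes are known to be E2F targets themselves. The motifs TTTCCCGC, TTTCGCGC, TTTGCCGC and TTTGGCGC were searched on both strands from 250 bases before to 50 bases after each transcription start given by RefSeq. The table held such a window for 8 of the 10 genes (E2F5 and E2F8 had none), and 4 of these 8 had a motif: E2F1, E2F2, E2F3 and TFDP1. E2F4, E2F6, E2F7 and TFDP2 had none in this window. Among all genes with such a window 3.99% had one, and among the tested genes 6.86%. Stretches of 80 bases are given for the 4 genes on the strand of the gene, with their GRCh37 position, and the capitals mark the motif in either orientation.
E2F1 chr20:32274182-32274261 minus strand: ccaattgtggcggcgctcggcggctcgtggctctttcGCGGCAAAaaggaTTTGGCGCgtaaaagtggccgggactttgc
E2F2 chr1:23857716-23857795 minus strand: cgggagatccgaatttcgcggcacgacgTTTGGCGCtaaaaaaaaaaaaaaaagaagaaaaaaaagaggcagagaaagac
E2F3 chr6:20402040-20402119 plus strand: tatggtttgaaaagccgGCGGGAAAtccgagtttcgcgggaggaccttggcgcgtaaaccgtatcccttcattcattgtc
TFDP1 chr13:114238908-114238987 plus strand: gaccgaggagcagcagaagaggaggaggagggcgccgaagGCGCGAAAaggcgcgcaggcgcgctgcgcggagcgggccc
E2F1 held 2 motifs that do not overlap, 33 and 20 bases before the start, E2F2 held 1 at 42 bases, E2F3 held 1 at 53 bases in front of 1 of its 2 starts, and TFDP1 held 1 at 120 bases. All 3 activator genes therefore shared this feature and no repressor gene with a window had it.

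All 10 genes averaged 1 FPKM or more across the libraries, the filter that 12040 genes passed in all. TFDP3, a further DP gene that is not among the 10, was listed at 0 in all 6 libraries. The libraries summed to 493145 to 550772 FPKM, with the miR-4711-5p pair lowest. Relative depth was read from the lowest values as a multiple of parent replicate 1, so the absolute depth is not known. It was 0.873 in parent replicate 2, 0.751 and 0.857 in NC-1, and 1.08 and 1.21 in miR-4711-5p, the deepest pair. This estimate rests on the 29.0% to 36.8% of the low values used that shared the most common ratio. The 5 ductal epithelial markers fixed for the check (KRT7, KRT8, KRT18, KRT19 and EPCAM) were all at 91.6 FPKM or more in every library. Markers of other cells summed to at most 2.47 FPKM for 6 fibroblast genes and 1.06 for 5 leukocyte genes. The 3 endothelial genes summed to 1.33 to 1.39 in parent, 3.23 to 3.53 in NC-1 and 0.649 to 0.775 in miR-4711-5p, most of it CDH5, and the 3 acinar genes summed to 0.730 to 1.57, 2.62 to 2.73 and 3.18 to 5.10, nearly all PRSS1, with CELA3A at 0. Their part in the differences below was not tested. In bulk RNA a lower share of cells that express a gene and less of its RNA per cell cannot be told apart.

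In parent cells E2F4 had the highest level of the family, followed by TFDP1, E2F1, E2F7 and E2F3. E2F8 and E2F2 overlapped in sixth and seventh place, and TFDP2, E2F6 and E2F5 were lowest, with E2F5 at 1.01 ± 0.116 FPKM (SD, n = 2). The order at the top was the same in NC-1, where TFDP2 and E2F8 overlapped. In miR-4711-5p cells E2F4, TFDP1 and E2F1 again held the first 3 places, while E2F3 stood above E2F7 and E2F8 overlapped with E2F6 in the eighth and ninth places.

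TFDP1, the main DP partner, was the member with the largest change. It stood at 44.7 and 48.6 FPKM in parent, 38.7 and 44.02 in NC-1, and 20.6 and 19.9 in miR-4711-5p. Both miR-4711-5p libraries lay far below all 4 control libraries, and both parent libraries lay above both NC-1 libraries. The ratio of means was 0.433 against parent (log2 change -1.17, SE 0.0726, limma adjusted p = 3.26e-05) and 0.489 against NC-1 (log2 change -0.99, SE 0.0726, adjusted p = 8.14e-05). Ranked by log2 change from the lowest, TFDP1 was number 97 of 12040 genes against parent and number 193 against NC-1. Between the controls the difference was -0.17, with a 95% interval of -0.34 to -0.00149 and an adjusted p of 0.121. The annotation names 3 TFDP1 pseudogenes, and also 2 of E2F3, 1 of E2F4 and 4 of E2F6. Their share of the reads was not measured.

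TFDP2, the other DP partner, also carries a site and was not called lower in either comparison. Its levels were 5.03 and 5.09 FPKM in parent, 4.92 and 4.38 in NC-1, and 5.51 and 5.51 in miR-4711-5p. Both miR-4711-5p libraries lay above the 4 controls, by 0.10 on the log2 scale against parent (95% interval -0.07 to 0.28, adjusted p = 0.306) and by 0.20 against NC-1 (interval 0.03 to 0.38, adjusted p = 0.0656). Neither difference passed the threshold. With the libraries rescaled to equal FPKM totals, a setting chosen after the totals were seen to differ, both passed it (0.22, adjusted p = 0.0477, and 0.25, adjusted p = 0.0337).

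**Figure D2:**
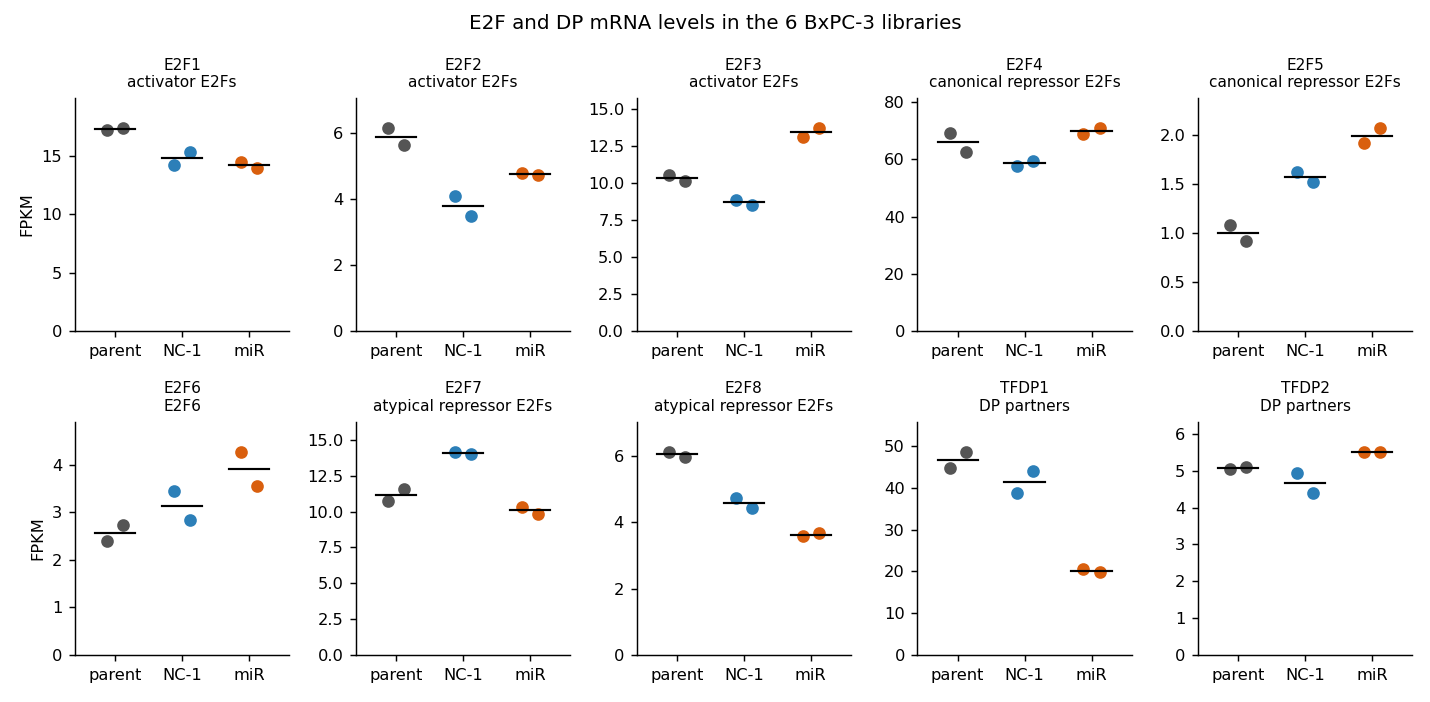
FPKM of each of the 10 genes in the 6 libraries (points) with the mean of the 2 libraries of each group (bars), each panel with its own axis from 0. The miR-4711-5p points (miR) of TFDP1, at 20.6 and 19.9, sit far below the control points, those of E2F8 and E2F7 sit below, and those of E2F3, E2F5, E2F6 and TFDP2 sit above all 4 controls.

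The activators did not move as a group. E2F3 was higher after miR-4711-5p treatment, at 10.5 and 10.1 FPKM in parent, 8.86 and 8.53 in NC-1, and 13.1 and 13.7 in miR-4711-5p. Both treated libraries exceeded all 4 controls, by a ratio of 1.30 against parent (log2 change 0.35, SE 0.0573, adjusted p = 0.00278) and 1.54 against NC-1 (0.57, SE 0.0573, adjusted p = 0.000345). NC-1 itself was below parent (log2 change -0.22, adjusted p = 0.0291), a call that leaving out any 1 of the 6 libraries ended (adjusted p 0.0565 to 0.118).

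E2F1, whose high activity is also known to prime cells for apoptosis, was at 17.3 and 17.4 FPKM in parent, 14.3 and 15.4 in NC-1, and 14.5 and 14.0 in miR-4711-5p. Both transfected groups lay below parent and overlapped with each other. The log2 change was -0.26 for miR-4711-5p against parent (SE 0.0567, adjusted p = 0.00869), -0.21 for NC-1 against parent (adjusted p = 0.0323) and -0.05 for miR-4711-5p against NC-1 (95% interval -0.19 to 0.08, adjusted p = 0.502). The first call ended without miR-4711-5p replicate 2 (adjusted p = 0.0616) and with equal FPKM totals (-0.13, adjusted p = 0.101). The second held only without NC-1 replicate 2 when single libraries were left out (adjusted p = 0.0438, and 0.0606 to 0.144 without each other library).

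E2F2 showed its largest difference between the controls. It was at 6.16 and 5.66 FPKM in parent, 4.11 and 3.48 in NC-1, and 4.81 and 4.74 in miR-4711-5p, so that the 3 groups did not overlap and NC-1 was lowest. NC-1 was lower than parent by 0.53 on the log2 scale (SE 0.0875, adjusted p = 0.00656), number 231 of 12040 from the lowest. Treatment with miR-4711-5p thus gave opposite signs against the controls, -0.26 against parent (adjusted p = 0.0496) and 0.27 against NC-1 (adjusted p = 0.0438). Against parent the call ended without parent replicate 1 or 2 or miR-4711-5p replicate 1 or 2 (adjusted p 0.0772 to 0.200), and against NC-1 it ended without any library but NC-1 replicate 1 (0.0575 to 0.192).

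E2F4, the most abundant member and a repressor with the pocket proteins, was at 69.1 and 62.7 FPKM in parent, 57.6 and 59.6 in NC-1, and 69.0 and 70.8 in miR-4711-5p. The treated values overlapped with parent (log2 difference 0.08, 95% interval -0.05 to 0.22, adjusted p = 0.260) and exceeded NC-1 (0.25, SE 0.0562, adjusted p = 0.0112). With equal FPKM totals the difference from parent passed the threshold (0.22, adjusted p = 0.0116). The call against NC-1 ended without NC-1 replicate 1 (adjusted p = 0.0581) or miR-4711-5p replicate 2 (0.0756). NC-1 against parent gave -0.17 (adjusted p = 0.0669), which passed the threshold without parent replicate 2 (-0.23, adjusted p = 0.0375).

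E2F5 was the least abundant member and rose with treatment relative to parent. It stood at 1.09 and 0.924 FPKM in parent, 1.62 and 1.52 in NC-1, and 1.92 and 2.07 in miR-4711-5p, in 3 groups that did not overlap. The ratio of means against parent was 1.98 (0.58 on the log2(FPKM + 1) scale, which understates changes at this level, SE 0.111, adjusted p = 0.00524). Against NC-1 the log2 difference was 0.22 (interval -0.04 to 0.48, adjusted p = 0.156). NC-1 exceeded parent by 0.36 (adjusted p = 0.0498), a call that leaving out any 1 library ended (0.0805 to 0.140).

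E2F6, the Polycomb-linked repressor, was at 2.40 and 2.73 FPKM in parent, 3.45 and 2.84 in NC-1, and 4.27 and 3.55 in miR-4711-5p. Both treated libraries lay above the controls, though miR-4711-5p replicate 2 exceeded NC-1 replicate 1 only narrowly. The log2 change was 0.46 against parent (ratio of means 1.52, SE 0.116, adjusted p = 0.0167) and 0.25 against NC-1 (interval -0.03 to 0.52, adjusted p = 0.135). The call against parent ended without parent replicate 1 (0.39, adjusted p = 0.0881) or miR-4711-5p replicate 1 (0.35, adjusted p = 0.113). NC-1 against parent gave 0.21 (adjusted p = 0.210), and the annotation names 4 E2F6 pseudogenes.

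Both atypical repressors were lower in miR-4711-5p cells than in all 4 control libraries. E2F8 was at 6.12 and 5.98 FPKM in parent, 4.73 and 4.42 in NC-1, and 3.58 and 3.69 in miR-4711-5p. The 3 groups stood apart in that order, with a ratio of 0.600 against parent (log2 change -0.61, SE 0.0710, adjusted p = 0.000600), 0.794 against NC-1 (-0.27, adjusted p = 0.0219) and 0.756 for NC-1 against parent (-0.34, adjusted p = 0.0143). Among single libraries left out, NC-1 replicate 1 and either miR-4711-5p replicate ended the call against NC-1 (adjusted p 0.0774 to 0.108), and parent replicate 1 and NC-1 replicate 2 ended that of NC-1 against parent (0.0719 and 0.0645).

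E2F7, which acts in pairs with itself or with E2F8, differed in its pattern over the controls. Its levels were 10.7 and 11.6 FPKM in parent, 14.2 and 14.0 in NC-1, and 10.3 and 9.85 in miR-4711-5p. NC-1 was the highest group, above parent by 0.31 on the log2 scale (SE 0.0607, adjusted p = 0.0111), and miR-4711-5p was below NC-1 (ratio 0.715, log2 change -0.45, SE 0.0607, adjusted p = 0.00132). Against parent the difference was -0.13 (interval -0.28 to 0.00988, adjusted p = 0.117). NC-1 against parent missed the threshold without parent replicate 1 (0.26, adjusted p = 0.0602) or NC-1 replicate 1 (0.31, adjusted p = 0.0566).

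**Figure D3:**
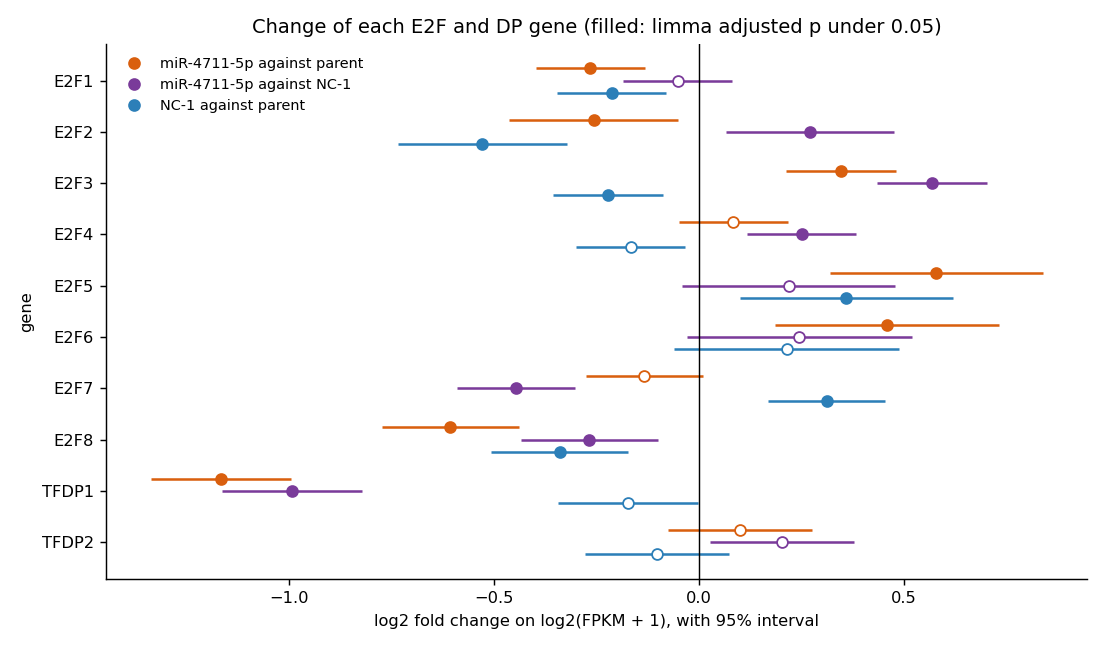
Log2 fold change on log2(FPKM + 1) of each gene with its 95% interval from limma, for the treated cells against each control and for NC-1 against parent, with filled points for an adjusted p under 0.05. TFDP1 stands apart at -1.17 and -0.99 in the comparisons with miR-4711-5p, E2F3 lies to the right in both, and E2F2 changes sign between them.

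Counted over the family, miR-4711-5p against parent gave 3 higher genes (E2F3, E2F5 and E2F6) and 4 lower (E2F1, E2F2, E2F8 and TFDP1), beside 18.7% and 24.7% of all tested genes called higher and lower. Against NC-1, 3 were higher (E2F2, E2F3 and E2F4) and 3 lower (E2F7, E2F8 and TFDP1), beside 18.4% and 21.2%. NC-1 against parent gave 2 higher (E2F5 and E2F7) and 4 lower (E2F1, E2F2, E2F3 and E2F8), beside 12.1% and 15.1%. The median log2 change of the 10 genes was -0.02, 0.21 and -0.17 in these comparisons, and that of all tested genes -0.01, 0.00379 and -0.01. Both miR-4711-5p libraries lay above the 4 controls for 4 members and below them for 3, against 23.8% and 26.3% of all tested genes. Over 10 genes, each of these counts lies above its background share by no more than a few genes. The gap is widest for the lower calls of NC-1 against parent and narrowest for members below the 4 controls. The comparisons share libraries, so their counts are not separate evidence.

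The smallest changes depend on scale. With equal FPKM totals the median of all tested genes moved from -0.01 to 0.11 for miR-4711-5p against parent, and the share of calls that were higher moved from 43.1% to 69.3% (46.5% to 58.4% against NC-1, and 44.4% to 69.9% for NC-1 against parent). No member changed sign in any comparison, and the members called became 5 higher and 2 lower, 4 and 3, and 2 and 2. Of the miR-4711-5p calls, the falls of TFDP1 and E2F8 and the rise of E2F3 held against both controls on this scale. E2F4 and TFDP2, not called against parent in the main fit, were called higher against both controls on it.

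The make-up of the E2F and DP mRNA pool differed between treated and control libraries. TFDP1 made up 90.2% ± 0.446 (SD, n = 2) of the summed FPKM of TFDP1 and TFDP2 in parent, 89.8% ± 1.58 in NC-1 and 78.6% ± 0.397 in miR-4711-5p. The 8 E2F genes together summed to 120.2 ± 4.37, 109.3 ± 0.704 and 121.9 ± 0.660 FPKM, whereas the 2 DP genes summed to 51.7 ± 2.79, 46.0 ± 3.39 and 25.7 ± 0.477. The ratio of E2F to DP mRNA was therefore 2.48 and 2.18 in the parent libraries, 2.49 and 2.27 in NC-1, and 4.66 and 4.82 in miR-4711-5p. The treated libraries stood apart from the 4 controls, which overlapped with each other. The E2F sum includes E2F7 and E2F8, which act without a DP partner. They made up 14.3% of it in parent, 17.1% in NC-1 and 11.2% in miR-4711-5p. The ratios and shares are given without a test, since an exact permutation test cannot give a p below 0.333 with 2 against 2 libraries.

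Within the E2F genes, the balance of activators to atypical repressors also separated the groups. The summed FPKM of E2F1, E2F2 and E2F3 was 1.95 ± 0.0923 times that of E2F7 and E2F8 in parent, 1.46 ± 0.0281 times in NC-1 and 2.36 ± 0.0437 times in miR-4711-5p. The activator sum itself was 33.5 ± 0.546 in parent, 27.3 ± 0.0986 in NC-1 and 32.4 ± 0.0108 in miR-4711-5p, and the atypical sum was 17.2 ± 0.535, 18.7 ± 0.291 and 13.7 ± 0.258. The sum of the activators in miR-4711-5p was thus close to that in parent with a different composition, in which E2F3 made up 41.3% ± 1.23 instead of 30.7% ± 0.296 (31.9% ± 0.976 in NC-1). E2F4 alone was 54.8% of all E2F mRNA in parent, 53.6% in NC-1 and 57.3% in miR-4711-5p.

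**Figure D4:**
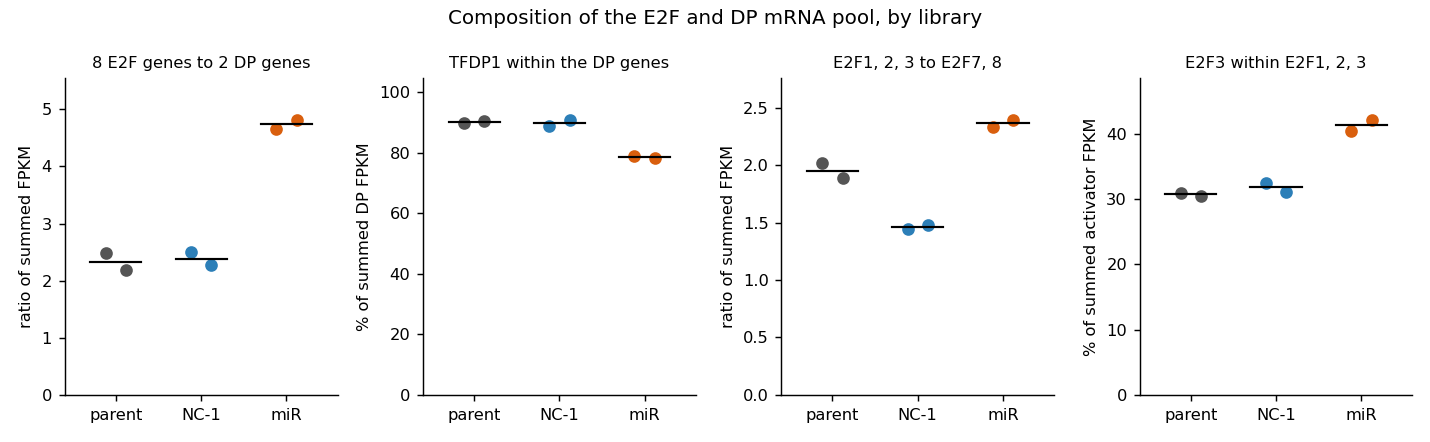
Ratios and shares of summed FPKM in each of the 6 libraries (points, bars for the mean of 2), with axes from 0. The E2F to DP ratio is 2.18 to 2.49 in the 4 control libraries and 4.66 and 4.82 in miR-4711-5p (miR), and the E2F3 share of the activators is highest in miR-4711-5p.

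The genes that act on or answer to the family were taken from 8 lists of 108 genes, of which 103 passed the filter. G1/S genes, which E2F proteins control and which serve DNA replication, were lower in both transfected groups than in parent. Of 40 tested, 33 were lower and 0 higher by limma in miR-4711-5p against parent (33 and 1 at an unadjusted p under 0.05), with a median log2 change of -0.38. NC-1 against parent gave 36 lower and 0 higher (38 and 1 unadjusted), also with a median of -0.38. Levels were thus also lower in cells given the control duplex. No group was transfected without a duplex, so the duplex and the transfection itself cannot be told apart. Against NC-1, miR-4711-5p gave 9 higher and 6 lower (22.5% and 15.0%, beside 18.4% and 21.2% of all tested genes), with a median of -0.01. The shares lower against parent were 82.5% for miR-4711-5p and 90.0% for NC-1, beside 24.7% and 15.1% of all tested genes. The mean log2(FPKM + 1) of the list was 5.05 and 5.04 in the parent libraries, 4.67 and 4.70 in NC-1, and 4.64 and 4.68 in miR-4711-5p, and the transfected groups overlapped. The comparisons with parent share the parent libraries. With equal FPKM totals 2 were higher and 25 lower in miR-4711-5p against parent, and 1 and 29 in NC-1 against parent. Without NC-1 replicate 1 the latter had 24 lower, and without miR-4711-5p replicate 1 the comparison with NC-1 had 1 higher and 3 lower.

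Of the G1/S genes lower against both controls, those with the largest falls against parent included GINS2 and MCM5. GINS2, a subunit of the GINS complex of the replicative helicase, was at 27.9 and 27.0 FPKM in parent, 19.8 and 20.7 in NC-1, and 8.28 and 9.01 in miR-4711-5p (log2 change -1.56 against parent, adjusted p = 5.15e-06, and -1.14 against NC-1, adjusted p = 1.83e-05). Its longest 3′ UTR holds an 8mer. MCM5, a subunit of the MCM helicase, was at 75.9 ± 2.89, 53.6 ± 3.18 and 46.3 ± 0.983 (-0.70 and -0.20, adjusted p = 0.000109 and 0.0254). MCM5 holds no site, and its call against NC-1 ended without NC-1 replicate 2 or either miR-4711-5p replicate (adjusted p 0.0785 to 0.132) and with equal FPKM totals (0.0670). The median log2 change against NC-1 was -0.10 over the 6 G1/S genes that hold a site and 0.01 over the 34 others. An E2F motif was in the promoter window of 19 of the 34 G1/S genes in the RefSeq table (55.9%). Those 19 had a median change of -0.35 against parent with 14 lower, and the 15 without a motif had -0.38, also with 14 lower.

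G2/M genes, which serve mitosis and answer to the MuvB, B-MYB and FOXM1 proteins as well as to E2F, were also lower in both transfected groups than in parent. Of 25 tested, 21 were lower and 0 higher against parent by limma (21 and 0 unadjusted, median -0.34), 6 lower and 3 higher against NC-1 (median -0.09), and NC-1 against parent gave 19 lower and 0 higher (22 and 0 unadjusted, median -0.29). Of all tested genes, 24.7% were lower and 18.7% higher against parent, and 21.2% and 18.4% against NC-1. In NC-1 against parent these shares were 15.1% and 12.1%. For lower calls the list stood above these shares in both comparisons with parent and close to them against NC-1. For higher calls it stood below them in each comparison. The 6 lower against NC-1 became 1 without miR-4711-5p replicate 1, 3 without miR-4711-5p replicate 2 and 4 without either NC-1 replicate. For NC-1 against parent the count without NC-1 replicate 1 was 10, without parent replicate 2 it was 12, and with equal FPKM totals the 3 comparisons gave 15, 5 and 12 lower. KIF20A, a kinesin of cytokinesis, was at 33.5 ± 0.994 FPKM in parent, 27.2 ± 0.726 in NC-1 and 16.5 ± 0.759 in miR-4711-5p (-0.98 and -0.69, adjusted p = 2.11e-05 and 0.000123). CCNB2, a mitotic cyclin, changed by -0.58 and -0.24 (adjusted p = 0.000246 and 0.0136), and BIRC5, the chromosomal passenger protein survivin, by -0.56 and -0.21 (adjusted p = 0.000103 and 0.00938). Against NC-1, the call of CCNB2 ended without NC-1 replicate 2 or either miR-4711-5p replicate (adjusted p 0.0670 to 0.0758), and that of BIRC5 without miR-4711-5p replicate 1 (0.0676). None of the 25 genes holds a site in its longest 3′ UTR.

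Among the regulators, B-MYB and FOXM1 were lower against both controls. MYBL2, which encodes B-MYB and is itself a known E2F target, was at 95.9 and 89.1 FPKM in parent, 73.1 and 77.3 in NC-1, and 55.03 and 50.05 in miR-4711-5p (-0.80 against parent, adjusted p = 0.000100, and -0.51 against NC-1, adjusted p = 0.000884). FOXM1, a mitotic activator, changed by -0.43 and -0.21 (adjusted p = 0.000466 and 0.0122), and its call against NC-1 ended without NC-1 replicate 2 (0.0598) or miR-4711-5p replicate 2 (0.0864). The 7 genes of this list gave 3 lower and 0 higher against parent (3 and 0 unadjusted) and 2 lower and 2 higher against NC-1. The share lower against parent was 42.9%, beside 24.7% of all tested genes. Against NC-1 it was 28.6% each way, beside 21.2% lower and 18.4% higher. NC-1 against parent also gave 3 lower and 0 higher (42.9% lower, beside 15.1%). They included MYBL2 (-0.29, adjusted p = 0.0159) and FOXM1 (-0.22, adjusted p = 0.0155). Without NC-1 replicate 1 these changes were -0.25 and -0.19, and the FOXM1 call ended with equal FPKM totals (-0.14, adjusted p = 0.0814). Of the pocket proteins, RB1 stood at 13.9 ± 0.523, 15.3 ± 0.286 and 14.2 ± 1.01 FPKM and passed no test (adjusted p = 0.747 against parent and 0.241 against NC-1). RBL1 was lower against parent (-0.34, adjusted p = 0.00937), with -0.10 against NC-1 (adjusted p = 0.304), and RBL2 was lower against NC-1 (-0.21, adjusted p = 0.0409), with -0.05 against parent (adjusted p = 0.527). The RBL2 call was lost without any single library but NC-1 replicate 2 (adjusted p 0.0518 to 0.198) and with equal FPKM totals (0.1001), and the RBL1 call without parent replicate 1 (0.0562) or miR-4711-5p replicate 1 (0.0662).

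Of the kinases and inhibitors that set pocket protein phosphorylation, 9 of 13 passed the filter, and CDKN2A and CDKN2B were listed at 0 in all libraries. Against parent 3 were higher and 3 lower by limma (33.3% each, beside 18.7% and 24.7% of all tested genes). Against NC-1 0 were higher and 3 lower (0% and 33.3%, beside 18.4% and 21.2%, and 0 and 3 unadjusted). The 3 higher against parent were CDK6 (0.58, adjusted p = 0.000725), CDKN1A (0.34, adjusted p = 0.000717) and CDKN1B (0.38, adjusted p = 0.00261). All 3 were also called higher in NC-1 against parent, and CDK6 holds a 7mer-m8. CCND1, cyclin D1, was at 78.3 ± 2.69 FPKM in parent, 77.0 ± 1.76 in NC-1 and 58.2 ± 3.51 in miR-4711-5p (-0.42 and -0.40, adjusted p = 0.00100 and 0.00144). Its kinase partner CDK4 changed by -0.38 and -0.22 (adjusted p = 0.000332 and 0.00407). CDKN2C, which inhibits CDK4 and is a known E2F target, changed by -0.79 and -0.45 (adjusted p = 0.000383 and 0.00533) and holds a 7mer-m8. Among the 3 genes of E2F protein turnover, SKP2 was lower against both controls (-0.36 and -0.30, adjusted p = 0.00440 and 0.0109), CCNF was lower against parent (-0.43, adjusted p = 0.000725) with -0.08 against NC-1 (adjusted p = 0.295), and FZR1 passed neither test (adjusted p = 0.182 and 0.154). The SKP2 call against NC-1 ended without NC-1 replicate 2 (0.0577) or miR-4711-5p replicate 1 (0.0768). Of the 8 tested partners of E2F6, 1 was higher and 1 lower against parent (12.5% each, beside 18.7% and 24.7% of all tested genes), and 2 were higher and 1 lower against NC-1 (25.0% and 12.5%, beside 18.4% and 21.2%). The lower call against parent ended without any single library but parent replicate 1, and that against NC-1 without either NC-1 or either miR-4711-5p replicate. L3MBTL2, a Polycomb subunit, was higher against both controls (0.29 and 0.22, adjusted p = 0.00682 and 0.0225), the second call ending without either NC-1 or either miR-4711-5p replicate (0.0739 to 0.110).

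Genes of apoptosis that E2F1 is known to induce went both ways. Of 8 tested, 5 were higher and 3 lower against parent by limma, beside 18.7% and 24.7% of all tested genes. Against NC-1, 3 were higher and 2 lower, beside 18.4% and 21.2%. NC-1 against parent gave 4 higher and 0 lower (4 and 1 unadjusted), beside 12.1% and 15.1%. Higher calls of miR-4711-5p exceeded these shares against both controls, and the 2 lower calls against NC-1 were close to theirs. PMAIP1, which encodes the BH3-only protein NOXA, was at 18.5 and 17.9 FPKM in parent, 21.7 and 23.4 in NC-1, and 56.8 and 50.5 in miR-4711-5p (log2 change 1.504 against parent, adjusted p = 1.01e-05, and 1.21 against NC-1, adjusted p = 2.83e-05). BBC3, the BH3-only protein PUMA, rose by 0.59 and 0.62 (adjusted p = 0.00551 and 0.00493), and BCL2L11, the BH3-only protein BIM, by 0.41 and 0.35 (adjusted p = 0.0158 and 0.0312). The BCL2L11 call against NC-1 ended without either parent replicate, NC-1 replicate 1 or miR-4711-5p replicate 2 (adjusted p 0.0517 to 0.183), and that against parent without either parent replicate or miR-4711-5p replicate 2 (0.0551 to 0.0997). APAF1, the scaffold of the apoptosome, was lower, at 3.93 ± 0.0266, 4.48 ± 0.0410 and 1.99 ± 0.00795 FPKM (-0.72 and -0.88, adjusted p = 0.000372 and 0.000183), and holds a 7mer-A1. BCL2L11, which rose, holds a 7mer-A1 as well. The genes of this list answer to other factors too, p53 among them. Without parent replicate 1 or 2 the count in NC-1 against parent was 1 higher.

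**Figure D5:**
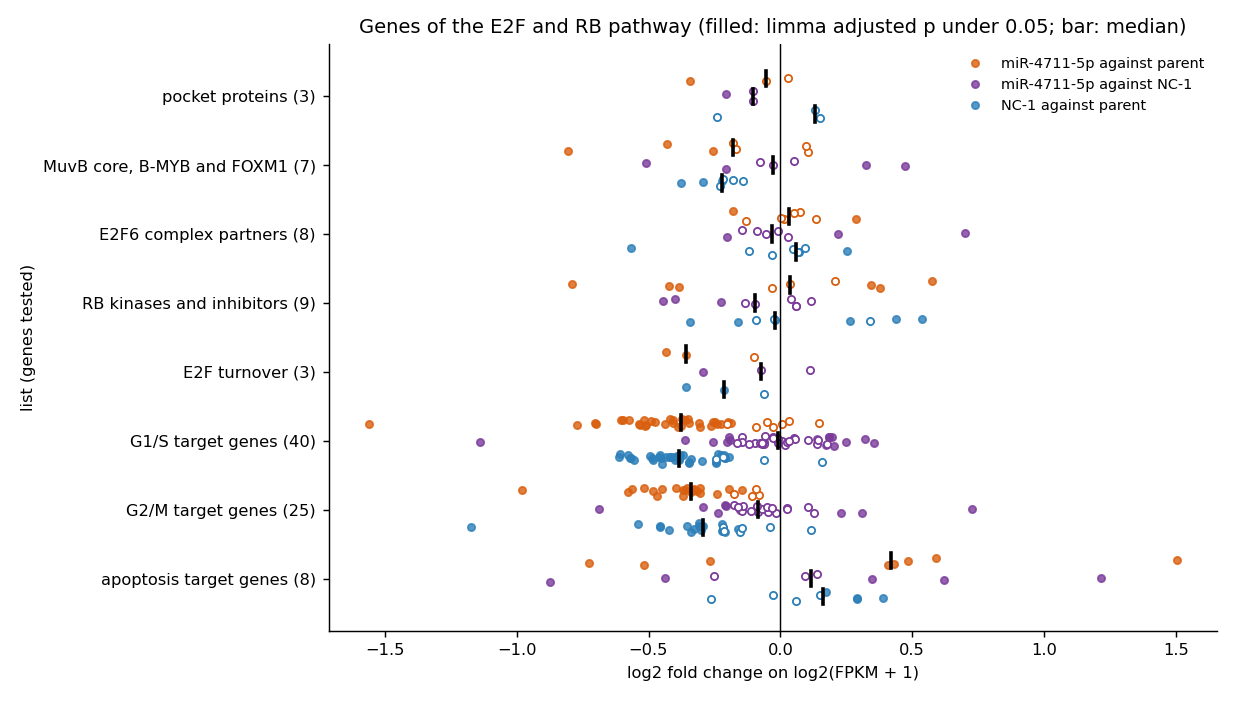
Log2 fold change of each tested gene of the 8 lists (points, filled for an adjusted p under 0.05) in the 3 comparisons, with the list median as a black bar. G1/S and G2/M genes lie left of 0 in both comparisons with parent (medians -0.38 and -0.34 for miR-4711-5p, -0.38 and -0.29 for NC-1) and around 0 for miR-4711-5p against NC-1, and most lists have members on both sides.

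Over all 103 genes, miR-4711-5p against parent gave 9 higher and 67 lower (8.74% and 65.0%, beside 18.7% and 24.7% of all tested genes), and NC-1 against parent gave 8 and 63 (7.77% and 61.2%, beside 12.1% and 15.1%). Between miR-4711-5p and NC-1 there were 19 and 22, or 18.4% and 21.4%, close to the shares of all tested genes (18.4% and 21.2%). The count against NC-1 was 19 in all without miR-4711-5p replicate 1, 22 without miR-4711-5p replicate 2, 26 without NC-1 replicate 1 and 27 without NC-1 replicate 2. That of NC-1 against parent was 41 without NC-1 replicate 1.

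The 4 members called against both controls were each set beside the 3 genes outside these lists whose level, relative to its parent mean, was nearest over the 6 libraries among 6558 genes averaging 10 FPKM or more. The measure was the root mean square difference of log2(FPKM + 1). For TFDP1 these were GM2A (0.0480), LRRC8D (0.0654) and TXNDC5 (0.0799), and GM2A stood at a mean of 28.15, 23.98 and 12.05 FPKM in parent, NC-1 and miR-4711-5p. For E2F3 they included CNP (0.0343) and POLR1C (0.0402), with CNP at a mean of 15.4 in parent, 12.8 in NC-1 and 20.3 in miR-4711-5p. For E2F8 they were COA3 (0.0415), GINS3 (0.0439) and DUT (0.0440), and for E2F2 they were ENO1 (0.0504), CCDC85B (0.0577) and FIS1 (0.0645). Small differences of this kind are frequent among so many genes and describe only the shape over 3 groups.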

How the data were processed

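Strand-specific mRNA libraries of BxPC-3 cells were sequenced in single-end mode by the authors and mapped to hg19 (GRCh37) with TopHat, Bowtie2 and SAMtools. The deposited values are FPKM per gene symbol, which the authors computed with Cuffnorm, 1 file per library. The submitters' processing notes name TopHat2 2.1.1, Bowtie2 2.3.5.1, SAMtools 1.2 and Cufflinks 2.2.1, and the methods of the study name other versions of the first 3. The gene annotation, the strand option and the normalization option of Cuffnorm are not given in the sources used here, so reads of a gene, its pseudogenes and overlapping genes cannot be told apart.

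FPKM are not counts, so the 12040 genes averaging 1 FPKM or more across the libraries entered limma 3.58.1 in R 4.3.3 as log2(FPKM + 1), with a mean-variance trend in eBayes. The 3 groups shared one fit with 3 residual and 4.15 prior degrees of freedom, two-sided, with Benjamini-Hochberg adjustment over all tested genes at 0.05. Levels are means ± SD of FPKM, ratios are of mean FPKM without a pseudocount, and log2 changes are on the log2(FPKM + 1) scale. The script was tested on simulated data. Summaries and figures used Python 3.11.15, pandas 2.3.3, numpy 2.4.6 and matplotlib 3.10.9.

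Groups were taken from the sample titles. The members and gene lists were chosen with earlier results of these data known. Named genes were the 10 members and TFDP3, every gene of lists of at most 3 genes, and from longer lists up to 3 falls and 3 rises, largest against parent among genes called against both controls, with the nearest profiles described in the text. Some genes that this rule names are not reported here. CDKN2A, CDKN2B, CDK6, CDKN1A, CDKN1B, CDH5, PRSS1 and CELA3A were named after their values were seen. Seed sites were searched in GENCODE v44 transcripts lifted to GRCh37. Promoters and the miRNA came from RefSeq, the promoter table being of GRCh38.p14, and each printed promoter was placed on GRCh37 by an exact match. Alternatives were another pseudocount, filter, scaling, variance model, sample set, fold threshold, replicate block and each library left out.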

Additional observations from a re-analysis of the deposited data

How the results depend on the processing

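No member changed sign under any of the alternatives that were run. Of 438 alternative values of the members' log2 changes, 360 kept their side of the threshold, 72 no longer passed it and 6 newly passed it. TFDP1 passed it under every alternative in both comparisons with miR-4711-5p. With a mean of at least 5 FPKM, which drops E2F2, E2F5, E2F6 and E2F8 from the test, 3 members were called for miR-4711-5p against parent in place of 7, and 3 for NC-1 against parent in place of 6. With a fold change of at least 1.5 on the log2(FPKM + 1) scale required as well, 2 members were called against parent (E2F8 and TFDP1), 1 against NC-1 (TFDP1) and 0 in NC-1 against parent, and 12, 7 and 3 pathway genes in place of 76, 41 and 71. That scale is stricter than the ratio of means. By that ratio E2F5 (1.98) and E2F6 (1.52) against parent and E2F3 (1.54) against NC-1 also changed by more than 1.5-fold. So did E2F5 (1.56) and E2F2 (0.643) in NC-1 against parent. NC-1 against parent also gave 3 members with no filter on low values and 3 with only the 2 groups compared in the fit. With no filter, the miR-4711-5p calls against parent of E2F2 (adjusted p = 0.114) and E2F6 (0.0535) ended as well. So did those against NC-1 of E2F2 (0.104) and E2F8 (0.0539). With only the 2 groups compared, the call of E2F2 against NC-1 ended (0.0583). With each library left out in turn the members called were 5 to 7, 3 to 5 and 1 to 4 in the 3 comparisons, and the pathway genes 62 to 75, 19 to 40 and 41 to 59. Of the rescalings, equal FPKM totals (adjusted p = 0.224) and median-of-ratios rescaling (0.0607) each ended the call of E2F2 against parent. A search of any annotated 3′ UTR gave the same 2 members with a site.

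Replicate numbers are shared between the titles of the groups, but same-numbered libraries did not deviate together over the tested genes (correlations 0.06, 0.00301 and -0.00892). With 2 libraries a group this cannot settle whether same-numbered libraries shared a culture or batch, which the titles do not state. With the replicate number as a block, the members called were 7, 6 and 4 and the pathway genes 74, 37 and 67. E2F1 and E2F5 in NC-1 against parent then had adjusted p-values of 0.0507 and 0.0709, and the block changed no other call of a member. The absolute depth is unknown, so no counting error can be given for the low levels of E2F5 and E2F6.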
